A study of Mus musculus with 8 samples.

Results

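The nuclei described here carry the name Unknown in the annotation that the authors deposited with a single-nucleus study of the mouse striatum. They were chosen by that name alone and number 861 of 55672 annotated nuclei (1.55%), 1 of 18 clusters. The striatum is the large nucleus of the basal ganglia, and on its medial side it borders the lateral ventricle. Frozen striatum of 32 mice, 12 weeks of age, had been processed with a 10x Genomics Multiome kit, in which RNA and accessible chromatin are read together for each nucleus. The groups were 8 inbred strains without any treatment, namely the wild-derived CAST/EiJ, PWK/PhJ and WSB/EiJ and the laboratory strains A/J, C57BL/6, 129S1/SvImJ, NZO/HlLtJ and NOD/ShiLtJ. Each of 4 batches pooled the nuclei of 1 mouse of every strain, so that a mouse is known by its batch and strain, and each strain had 4 mice. Every batch held 4 males and 4 females; which mouse was which sex was not used.

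The adult brain keeps a germinal zone along the wall of the lateral ventricle. There, slowly dividing stem cells that resemble astrocytes give rise to transit amplifying progenitors, which carry the epidermal growth factor receptor Egfr and divide fast. Their progeny are neuroblasts, young neurons that still divide, express the microtubule-binding protein doublecortin (Dcx), migrate to the olfactory bulb and become GABAergic interneurons there. The gene lists used below follow these steps.

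The Unknown nuclei had a median of 2071 UMIs (unique molecular identifiers, each 1 captured RNA molecule) and 1262 detected genes. All other annotated nuclei together had a median of 4417 UMIs, and by cluster the medians ran from 1432 in macrophages to 8370 in Chat+ interneurons, with oligodendrocytes, macrophages, mural cells and fibroblasts below the cluster Unknown. The 4 batches gave 229, 223, 154 and 255 nuclei with summed totals of 567234, 519655, 271365 and 615350 UMIs, and batch 3 was the shallowest at a median of 1515 UMIs per nucleus. No barcode of the cluster occurred in the cluster in more than 1 batch, and 40 of the 861 (4.65%) were also a barcode of an annotated nucleus of another batch, against 5.48% of all annotated nuclei.

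All 3 genes that mark the cluster were highest there among the 18 clusters. Levels are given as CPM, the UMIs of a gene per 1e6 UMIs of the cluster, as the mean of the 4 batches ± SD. Since the clusters were drawn from these same genes, levels between clusters are a description and carry no test. Dcx reached 349, 358, 236 and 387 CPM in batches 1 to 4, a mean of 332 ± 66.4 (SD, n = 4), and the next cluster, the Nxph1+ interneurons, had 136 CPM. Sox11, a transcription factor of immature neurons, was at 448, 360, 498 and 491 CPM, a mean of 449 ± 63.4 (SD, n = 4), against 74.8 CPM in the Sst+ interneurons. Top2a, the DNA topoisomerase that untangles chromosomes in dividing cells, was at 326, 269, 383 and 309 CPM, a mean of 322 ± 47.3 (SD, n = 4), against 7.83 CPM in the ependyma, a value that rests on 5 UMIs. The proliferation antigen Mki67 was at 162, 141, 162 and 127 CPM, and the next cluster had 7.22 CPM. In each of the 4 genes the lowest batch of the cluster lay above the mean of every other cluster.

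**Figure D1:**
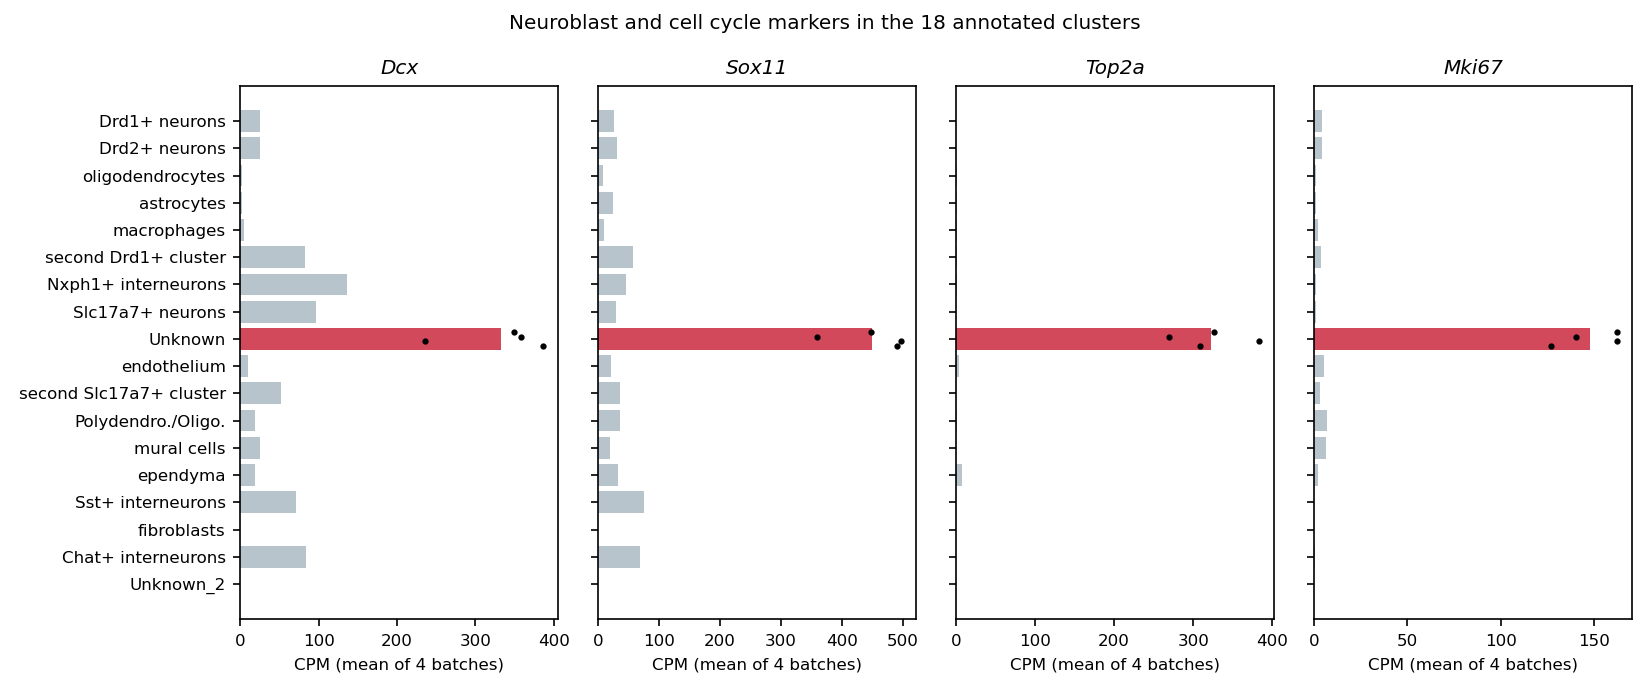
Levels of Dcx, Sox11, Top2a and Mki67 (CPM, linear axis from 0) in the 18 annotated clusters; bars are the mean of 4 batches and the black dots are the 4 batches of the cluster Unknown. The cluster Unknown has the tallest bar in each panel, 332 CPM for Dcx, 449 for Sox11, 322 for Top2a and 148 for Mki67.

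The share of nuclei with a UMI depends on depth as well as on the level. A UMI of Dcx was found in 43.0% of the 861 nuclei, of Sox11 in 53.0%, of Dlx1 in 47.4%, of Top2a in 22.1% and of Mki67 in 15.1%. In astrocytes, which have a close median depth of 2220 UMIs and should lack them, Dcx was found in 0.442% of nuclei, Sox11 in 4.82% and Top2a in 0.274%. In the deeper Chat+ interneurons (median 8370 UMIs) and Slc17a7+ neurons (7985 UMIs), Dcx was found in 49.2% and 45.2% of nuclei, more than in the cluster, at levels of 83.5 and 96.9 CPM. For Sox11 and Top2a the share was highest in the cluster Unknown.

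Of the 20 genes of the neuroblast list, 18 were highest in the cluster Unknown, where 9.92% of all 18011 genes counted (those with at least 5 CPM in a cluster) were highest there. In 16 of the 20, each of the 4 batches lay above every batch of every other cluster, against 1.96% of all genes. The homeobox gene Dlx1, which directs forebrain GABAergic neuron formation, was at 366 ± 4.30 CPM (SD, n = 4), and the next cluster, the Nxph1+ interneurons, had 27.8 CPM. Igfbpl1, a secreted protein of young neurons, was at 371 CPM, and the long noncoding RNA Dlx6os1 at 1476 CPM against 332 CPM in the Chat+ interneurons. The zinc finger gene Sp8 was at 49.9 CPM against 2.14 CPM in the next cluster. The exceptions were the RNA-binding protein gene Elavl2, at 269 CPM against 2105 in the Chat+ interneurons, and Cd24a, which also marks ciliated cells, at 64.3 CPM against 159 in the ependyma. The summed level of the list was 5395 to 5941 CPM over the batches, and the next cluster had a mean of 3214 CPM.

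Nearly all genes of cell division were highest in the cluster too, against 9.92% of all genes. Of 26 genes of DNA replication (S phase), 25 were highest in the cluster, the exception being the nucleotide enzyme Dut, at 33.0 CPM against 35.3 in the cluster named Unknown_2. Of 34 genes of mitosis (G2/M), 33 were highest, the exception being Anln, a contractile ring protein that oligodendrocytes also make, at 79.8 CPM against 620 in oligodendrocytes. The median log2 ratio of a gene to its highest other cluster was 2.88 for the mitosis list, 1.45 for the replication list and 1.61 for the neuroblast list, and -1.49 over all genes. Summed over the mitosis list the cluster had 2357 CPM, and the next cluster, oligodendrocytes, had 716 CPM. All 4 batches were above every batch of the other clusters for 24 of the 34 mitosis genes and 11 of the 26 replication genes, against 1.96% of all genes.

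To show the regulatory sequence in front of such genes, 4 of them are printed, since short elements in promoters of this kind are known to time transcription to a phase of the cell cycle. Each is the run of 250 bases before the start of the gene in RefSeq, build GRCm38.p6, written 5′ to 3′ on the strand of the gene. Capitals mark the cell cycle homology region TTTGAA (CHR), the CCAAT box CCAAT and the E2F motif (TTTGGCGC or TTTCCCGC), on either strand. The first 3 belong to the mitosis list, being Top2a (chr11:99024190-99024439, minus strand), the mitotic kinase Cdk1 (chr10:69352913-69353162, minus strand) and the spindle motor Kif11 (chr19:37376132-37376381, plus strand). The last is Mcm6, a subunit of the replicative helicase from the replication list (chr1:128359706-128359955, minus strand).
Top2a: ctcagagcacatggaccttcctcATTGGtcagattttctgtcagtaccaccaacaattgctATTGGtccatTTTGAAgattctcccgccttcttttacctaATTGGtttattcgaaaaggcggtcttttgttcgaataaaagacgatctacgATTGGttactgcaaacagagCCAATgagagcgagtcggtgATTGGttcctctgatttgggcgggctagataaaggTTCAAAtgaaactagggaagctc
Cdk1: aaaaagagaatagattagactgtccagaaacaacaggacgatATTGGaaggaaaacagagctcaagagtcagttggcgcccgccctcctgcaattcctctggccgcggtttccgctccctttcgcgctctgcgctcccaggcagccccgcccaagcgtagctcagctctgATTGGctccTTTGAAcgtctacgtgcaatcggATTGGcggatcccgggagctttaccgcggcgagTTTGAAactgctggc
Kif11: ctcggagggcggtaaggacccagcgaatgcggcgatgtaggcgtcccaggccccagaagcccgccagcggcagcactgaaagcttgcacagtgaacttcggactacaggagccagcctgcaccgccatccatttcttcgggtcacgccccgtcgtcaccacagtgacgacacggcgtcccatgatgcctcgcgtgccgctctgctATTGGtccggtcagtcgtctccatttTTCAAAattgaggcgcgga
Mcm6: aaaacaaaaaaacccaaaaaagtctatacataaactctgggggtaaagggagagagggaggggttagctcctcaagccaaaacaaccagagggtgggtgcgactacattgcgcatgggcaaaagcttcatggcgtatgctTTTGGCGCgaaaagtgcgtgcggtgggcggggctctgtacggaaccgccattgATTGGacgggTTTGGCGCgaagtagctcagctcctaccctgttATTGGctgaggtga

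The Top2a window holds 2 CHR and 6 CCAAT matches, the Cdk1 window 2 and 3, and the Kif11 window 1 of each, and none of these windows holds the E2F letters. The Mcm6 window holds 2 E2F matches, 2 CCAAT matches and no CHR. Of the 34 mitosis genes, 30 had a window in the table, and 13 of these (43.3%) held a CHR, 25 (83.3%) a CCAAT box and 0 an E2F motif. Of the 26 replication genes, 21 had a window, and 2 held a CHR, 14 (66.7%) a CCAAT box and 6 (28.6%) an E2F motif. Over the windows of all 27025 genes the shares were 18.3%, 37.5% and 1.51%. The neuroblast list had a window for 11 of its 20 genes, too few for a share of the list, and of these 10 held a CCAAT box, 4 a CHR and 0 an E2F motif. The CHR and CCAAT letters were thus not seen in cell division genes alone. A match is a run of letters and was not tested as a binding site.

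By a fixed rule, the 20 leading genes were those with the largest ratio to the highest other cluster and at least 20 CPM in every batch. Among them were Lockd, Top2a, Esco2, Tpx2, Neil3, Ttk, Brip1, Cep55, Draxin, Bub1, Cdca2, Mki67, Dtl, Aspm, B3gnt5, Sp8, Stil, Dlgap5 and Kif4. Of the 20, Top2a, Tpx2, Brip1, Bub1, Mki67, Aspm and Kif4 are on the replication or mitosis list and Sp8 on the neuroblast list. The spindle assembly factor Tpx2 was at 90.5 CPM, the cohesin acetyltransferase Esco2 at 60.4 CPM, the DNA repair glycosylase Neil3 at 136 CPM and Dtl, which limits replication licensing, at 112 CPM. The long noncoding RNA Lockd, transcribed next to the cell cycle inhibitor gene Cdkn1b, was at 251 CPM. Draxin, a secreted axon guidance protein, was at 116 CPM. The name neuroblast-like nuclei is taken from the 18 neuroblast list genes above and not from the leading genes. It is a description, since the lists were chosen with earlier results of these data known, and was not tested. With every nucleus thinned to 1000 UMIs, 11 of the 20 were again among the leading 20.

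Markers of stem cells and transit amplifying progenitors were mixed, 8 of 20 being highest in the cluster, against 9.92% of all genes. Egfr was at 786 ± 237 CPM (SD, n = 4) against 277 in astrocytes. A UMI of Egfr was nevertheless found in fewer nuclei of the cluster (33.45%) than of astrocytes (38.86%), which have a close median depth. The transcription factor genes Gsx2, Pax6 and Sox2 were at 12.1, 119 and 66.9 CPM, and these as well as the Notch pathway genes Dll1, Dll3 and Hes6 were highest there. Among the 12 that were not, the hedgehog effector Gli3 was at 87.6 CPM against 666 in astrocytes, and Nes, an intermediate filament gene, and Thbs4 were at 6.31 and 12.8 CPM. The summed list was 1601 CPM in the cluster, below the 2192 CPM of astrocytes.

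The migration list summed to 11595 CPM, against 14956 CPM in the Nxph1+ interneurons, and the olfactory bulb list to 6909 CPM, the highest, against 5385 CPM in the second Drd1+ cluster. Of 23 migration and guidance genes 2 had all 4 batches above all others, against 1.96% of all genes, and 4 were highest in the cluster, against 9.92% of all genes. The 4 were the adhesion molecule Ncam1 (1546 CPM), the prokineticin receptor Prokr2, the reelin receptor Lrp8 (250 CPM) and Plxna4 (590 CPM). The neuregulin receptor Erbb4 was at 3933 CPM, exceeded by 2 other clusters, and the Slit receptor Robo2 at 1802 CPM, the second. Its relative Robo1 was at 195 CPM, where the highest cluster had 3733. Of 15 genes of olfactory bulb interneurons 7 were highest, among them Meis2, a homeobox gene, at 3031 CPM against 2150 in the next cluster and the synaptic vesicle gene Synpr at 445 CPM. Gad1 and Gad2, the enzymes that make GABA, were at 335 and 418 CPM. Calb2, a calcium-binding protein gene, was at 5.51 CPM against 9.18 in the Nxph1+ interneurons, and Th, the dopamine enzyme, had 1 UMI in all. The list of striatal interneuron genes summed to 414 CPM, with 11434 in the Sst+ interneurons and a median of 215 over the other clusters, and 259 CPM of it was Nxph1, a synaptic adhesion ligand.

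Of 12 mature neuron genes 1 was highest in the cluster, a share near the 9.92% of all genes, and the median log2 ratio of the list to the highest other cluster was -2.63. That gene, Map2, a dendritic microtubule protein, was at 1665 CPM against 711 in the next cluster. Celf4, a neuronal RNA-binding protein gene, was at 686 CPM against 858 in the highest cluster. The synaptic vesicle calcium sensor Syt1 was at 221 CPM against 5075 in the highest cluster, the NMDA receptor subunit Grin2a at 11.4 CPM against 1108, and Rbfox3, the gene of the neuronal antigen NeuN, at 64.9 CPM, fourteenth of 18. Among genes with at least 100 CPM in the median neuron cluster, the furthest below it were Galntl6, at 24.9 CPM against 1762 (68.1-fold lower), and Snhg11, at 42.7 CPM against 2941 (67.4-fold lower). Sgcz, Lingo2, Hs6st3 and the muscarinic receptor Chrm3 were also among the lowest 10.

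Markers of other mature cell types were far below their own cell type in sum, but most of their lists were above the median of the other 17 clusters. The oligodendrocyte list summed to 3866 CPM, with 23040 in oligodendrocytes and a median of 2120 over the other clusters. The astrocyte list summed to 1854 CPM, with 12770 in astrocytes and a median of 1156. The oligodendrocyte precursor list summed to 1130 CPM, with 5292 in the Polydendrocyte/Oligodendrocyte cluster and a median of 322. These 3 lists thus lay above the median. So did the excitatory neuron (42.1 CPM, median 21.7), microglial and macrophage (150, median 119), endothelial (57.2, median 31.1) and mural cell lists (51.25, median 46.8). The interneuron list, given above, and the ependymal list, given below, did too. The projection neuron list, at 1887 CPM, lay below its median of 3059. The committed oligodendrocyte precursor list, at 209 CPM, also lay below its median of 384, and the fibroblast list, at 6.35 CPM, below 14.2. Of the 9 oligodendrocyte precursor genes 0 were highest in the cluster. Within the list, Sox6 and Vcan had the largest values in the nuclei without cell cycle genes described below, at 726 and 382 CPM. In the nuclei with 2 or more cell cycle genes they were at 914 and 159 CPM. Pdgfra and Cspg4 were at 3.49 and 1.15 CPM in the nuclei without cell cycle genes, on 1 UMI each. The ependymal list summed to 52.5 CPM, with 5275 in the ependyma and a median of 35.7. At least 3 UMIs over at least 2 genes of a list of another mature type were found in 778 of the 861 nuclei (90.4%). The share over any list was not counted in other clusters. For the oligodendrocyte list alone the share was 72.4%, with 76.0% in astrocytes and 73.3% in Drd1+ projection neurons. For the projection neuron list it was 62.95%, with 52.4% in astrocytes, and for the astrocyte list 48.4%, with 68.1% in Drd1+ neurons. For the interneuron list it was 5.11%, with 1.31% in astrocytes and 1.62% in Drd1+ neurons. The part of free RNA and of doublets in these counts was not tested, and over the 83 nuclei without such UMIs 2 of the 20 leading genes were again among the leading 20.

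Only genes with at least 20 CPM in the cluster Unknown were compared with Dcx. The level of Dcx over the 18 clusters was followed most closely by Ss18l1, a calcium-responsive chromatin factor of neurons (r = 0.97). Next in order were Nipsnap1 (0.92), B4galnt4, Acbd6, Fam171a2, the collapsin response mediator Crmp1 (0.90), Sox11 (0.90), Srrm4, Gdap1 and Mcph1 (0.89). These correlations are of log2 CPM over clusters that share batches and mice, and describe likeness only. Likeness to other clusters was taken over the 7900 genes with at least 20 CPM in the cluster Unknown. Over these genes it was nearest to the cluster that the authors named Polydendrocyte/Oligodendrocyte (r = 0.71), then to the Nxph1+ interneurons (r = 0.68). The separate oligodendrocyte cluster was at r = 0.57.

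Dividing nuclei were then counted within the cluster. Each nucleus was thinned at random to 1000 UMIs, which left out the 43 nuclei with fewer, and called cycling when UMIs of at least 2 different genes of the replication and mitosis lists remained. Of 818 thinned nuclei 334 (40.8%, exact 95% interval 37.4 to 44.3%) were cycling, and 46.6, 37.2, 46.0 and 36.4% in the 4 batches. Without thinning the share was 55.1%, and in the other 17 clusters it ran from 7.47% in macrophages to 55.0% in the deeper Chat+ interneurons. After thinning, the other 17 clusters ran from 1.48% to 11.3%, the highest being oligodendrocytes. Without Anln the thinned share was 3.00% in oligodendrocytes and 40.5% in the cluster Unknown, and endothelium was the highest of the others at 7.54%. Of the 818 nuclei 232 (28.4%) had genes of both lists, 226 of the replication list only, 75 of the mitosis list only and 285 of neither. By number of cycling genes, 334 had 2 or more, 199 had 1 and lie near the threshold, and the same 285 had none. The share is a range cut from counts and not a separate cell type.

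**Figure D2:**
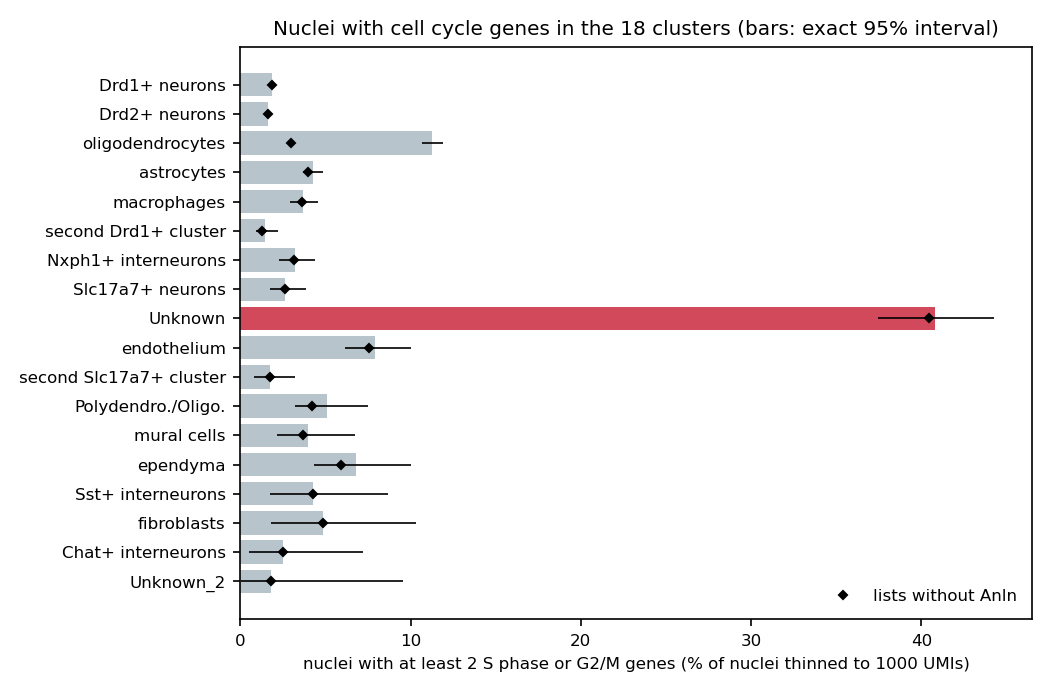
Share of nuclei (%, axis from 0) with at least 2 cycling genes after thinning to 1000 UMIs in each annotated cluster; bars carry the exact 95% interval and diamonds give the share without Anln. The cluster Unknown stands at 40.8%, and the oligodendrocyte bar falls from 11.3% to 3.00% without Anln.

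Nuclei with 2 or more cycling genes and nuclei with none differed in genes outside the cycling lists. The comparison took the 8699 genes with a mean of at least 20 CPM in either group, so a gene could enter through 1 group alone. Of these, 12.0% were higher in the cycling nuclei in all 4 batches without overlap and 4.67% were lower, with a median log2 ratio of 0.15. Genes named as higher or lower in this comparison met that rule, except where their values are said to overlap. The comparison is a description over 4 batches and carries no test. The cycling nuclei were deeper, at a median of 2528 UMIs against 1915, and the part of depth in the result was not tested. Of 5 oligodendrocyte precursor genes 3 were lower in cycling nuclei, with Vcan going from 382 to 159 CPM, Olig1 from 29.9 to 6.52 CPM and Lhfpl3 from 23.7 to 5.44 CPM. Olig1, with 20 and 6 UMIs, and Lhfpl3, with 15 and 5, reached 20 CPM only in the nuclei without cycling genes, where they were high. Of 4 microglial and macrophage genes none met the rule in either direction, their median log2 ratio being 0.76, and Csf1r, below the 20 CPM limit, had 0 UMIs without cycling genes and 10 with them. Markers of other neurons were lower for 1 of 4 interneuron genes, Nxph1 (490 to 109 CPM), and 2 of 13 projection neuron genes, Foxp2 (574 to 243 CPM) and Penk (236 to 128 CPM). Of 8 oligodendrocyte and 7 astrocyte genes 0 met the rule, with median log2 ratios of -0.77 and 0.33. The myelin genes Mbp, Mog and Mal were lower in cycling nuclei within each batch, with overlapping values (means of 2755, 79.6 and 106 CPM without cycling genes and 2348, 34.97 and 66.7 CPM with them). The part of other cell types' RNA in the comparison was not tested.

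Of 18 stem and transit amplifying genes 7 were higher in cycling nuclei, 0 were lower and 11 overlapped. In 2 settings added after the data were seen, 5 of 15 were higher (a second random thinning) and 6 of 18 (the cycling lists without Anln). Egfr was at 330, 130, 726 and 442 CPM in nuclei with no cycling gene and at 1348, 1046, 1557 and 914 CPM in cycling nuclei, so every cycling value exceeds every other (407 ± 249 and 1216 ± 291 CPM, SD, n = 4). Gli3 went from 22.3 to 141 CPM and Sox2 from 43.2 to 84.3 CPM. Notch1 was also higher. So were Sox9 (18.3 to 46.3 CPM) and Dll3 (13.3 to 41.9 CPM), which reached 20 CPM only in the cycling nuclei and count among the 7. The overlapping genes had higher means in cycling nuclei, apart from the matrix genes Tnc and Thbs4. Pax6 (means of 89.2 and 152 CPM) and Fabp7 (22.8 and 60.4 CPM) were higher within each batch. Tnc and Thbs4 had means of 29.5 and 23.0 CPM without cycling genes and 2.66 and 10.4 CPM with them. Tnc rests on 13 and 3 UMIs and Thbs4 on 12 and 10, and Thbs4 was higher in cycling nuclei in batches 2 and 4. Egfr was found in 10.9% of thinned nuclei with no cycling gene and in 42.2% of cycling nuclei.

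Neuroblast genes split. Of the 20, 6 were lower in cycling nuclei and 0 were higher. Dcx was at 413, 419, 349 and 502 CPM without cycling genes and at 221, 230, 107 and 301 CPM with them. The tubulin Tubb3 went from 369 to 185 CPM, the microtubule regulator Stmn2 from 371 to 161 CPM and Dlx6os1 from 1730 to 1093 CPM, and Nrep and Tubb2b were lower too. The values of Sox11, with means of 393 and 455 CPM, of Dlx1, with 305 and 406 CPM, and of Igfbpl1 overlapped between the groups, although Dlx1 was higher in cycling nuclei within each batch. Dpysl3, a neurite protein gene, was at 375.5 and 372 CPM.

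Migration and olfactory bulb genes were compared likewise. Of 22 migration genes 9 were lower (11 of 21 in the second thinning and 10 of 22 without Anln), 12 overlapped, and Epha4, an ephrin receptor, was the 1 that was higher (201 against 350 CPM). Among those that overlapped, Pafah1b1 and Cxcr4 were higher in cycling nuclei within each batch, and St8sia2, Unc5c and Dab1 were lower within each batch. Erbb4 was at 5993, 7366, 5277 and 6830 CPM without cycling genes and at 1672, 2182, 1122 and 1828 CPM with them, the groups lying far apart. Robo2 went from 2878 ± 469 to 895 ± 297 CPM (SD, n = 4) and was found in 73.7% and 30.5% of thinned nuclei. Of the 9 olfactory bulb interneuron genes with at least 20 CPM 7 were lower, with Meis2 going from 3953 to 1966 CPM, Pbx3 from 3044 to 1210 CPM, Synpr from 634 to 271 CPM and Gad1 from 432 to 190 CPM. Prokr2, counted as lower on both lists (33.7 to 4.77 CPM), and the migration gene Nrp2 (22.9 to 1.80 CPM) reached 20 CPM only without cycling genes.

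**Figure D3:**
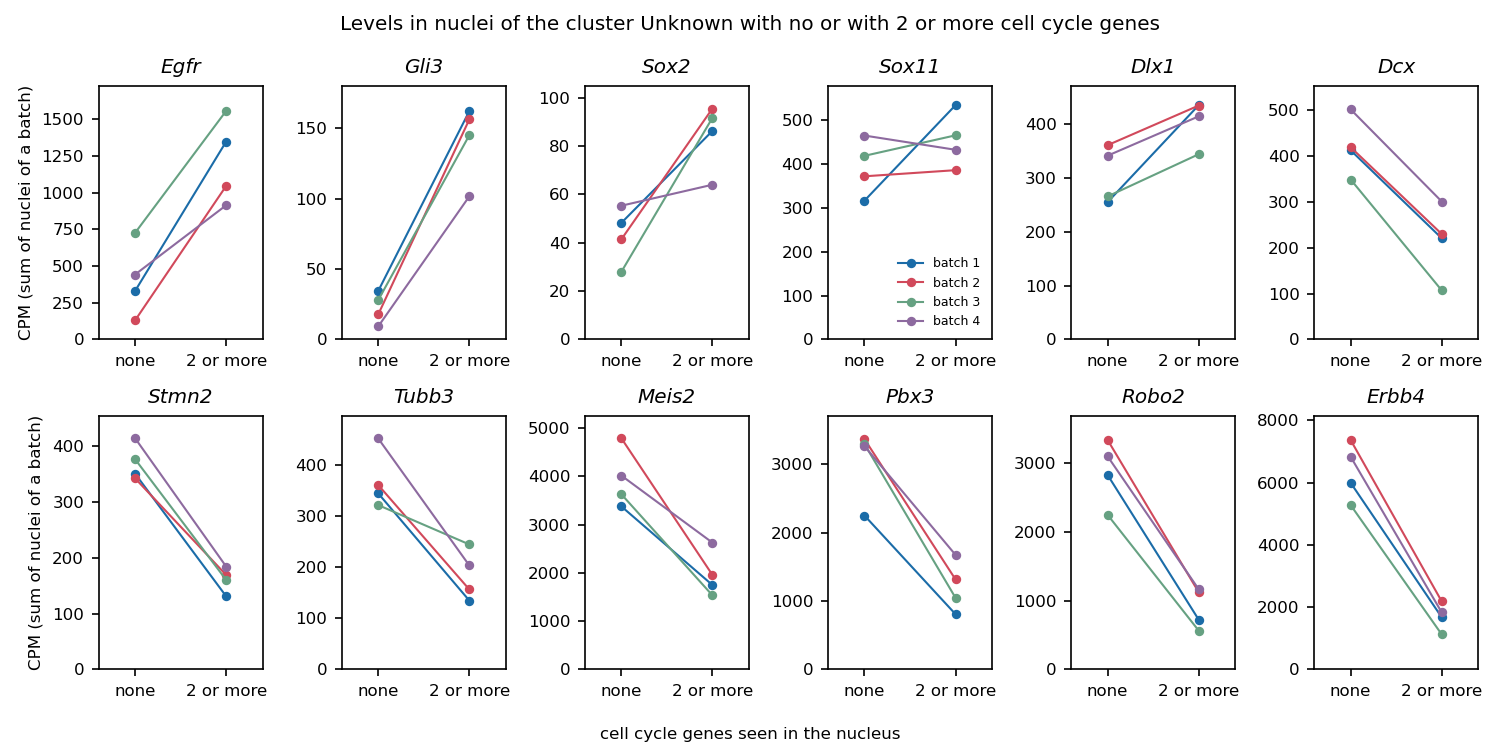
Levels (CPM) of 12 genes in nuclei of the cluster with no cycling gene and with 2 or more, 1 line per batch. Lines rise for Egfr, Gli3 and Sox2 and, with overlapping values, for Dlx1, cross for Sox11, and fall in all 4 batches for Dcx, Stmn2, Tubb3, Meis2, Pbx3, Robo2 and Erbb4.

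The cluster was found in every mouse, as 3 to 70 nuclei. Its share of a mouse's annotated nuclei ran from 0.219% to 4.45% with a median of 1.35%. Strain means ± SD over 4 mice were 0.612 ± 0.465% in NOD/ShiLtJ, 1.05 ± 0.913% in 129S1/SvImJ, 1.22 ± 0.828% in A/J, 1.35 ± 0.471% in WSB/EiJ, 1.49 ± 0.673% in PWK/PhJ, 1.97 ± 1.27% in C57BL/6, 2.43 ± 1.43% in CAST/EiJ and 2.73 ± 1.38% in NZO/HlLtJ. The strains overlapped widely, and the order of neighbours lies within their spread. The difference between strains did not pass the two-sided permutation test within batches (F = 1.96, p = 0.116, 0.298 after Benjamini-Hochberg adjustment over the 18 clusters).

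Mice with a larger share of the cluster tended to have a larger share of ependyma, the ciliated lining of the ventricle. Over 32 mice, with each share as a log2 ratio to the nuclei outside both clusters, Pearson's r was 0.60 (permutation within batches p = 9e-05, adjusted 0.00153 over 17 clusters) and Spearman's rho 0.55 (permutation p = 0.00055, adjusted 0.00935). Without the 2 mice farthest from the median r was 0.54, and within the batches it was 0.34, 0.68, 0.80 and 0.63. NZO/HlLtJ had the 2 highest ependymal shares, 2.20% in batch 1 and 2.53% in batch 2, with 1.22% and 3.10% of the cluster Unknown. CAST/EiJ and NOD/ShiLtJ of batch 3 had no ependymal nucleus, and 0.424% and 0.314% of the cluster Unknown. The NZO/HlLtJ mouse of batch 4 had the highest share of the cluster Unknown, 4.45%, with 0.404% ependyma. The CAST/EiJ mouse of batch 4 had 3.15% with 0.367% ependyma. Ependymal shares rest on 0 to 40 nuclei per mouse.

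Astrocytes were the only other cluster to pass, with r = 0.47 (permutation p = 0.00323, adjusted 0.0275), rho = 0.50 (permutation p adjusted 0.0454), r = 0.50 without the 2 farthest mice and 0.80, 0.58, 0.37 and 0.61 within batches. Without batch 3 the ependymal relation did not pass (r = 0.50, permutation p adjusted 0.155). The astrocyte relation did not pass without batch 1, 2 or 4 (r = 0.44, 0.55 and 0.44, permutation p adjusted 0.115, 0.109 and 0.125). How much ventricular wall each dissection held was not measured, and its part in the shares was not tested.

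**Figure D4:**
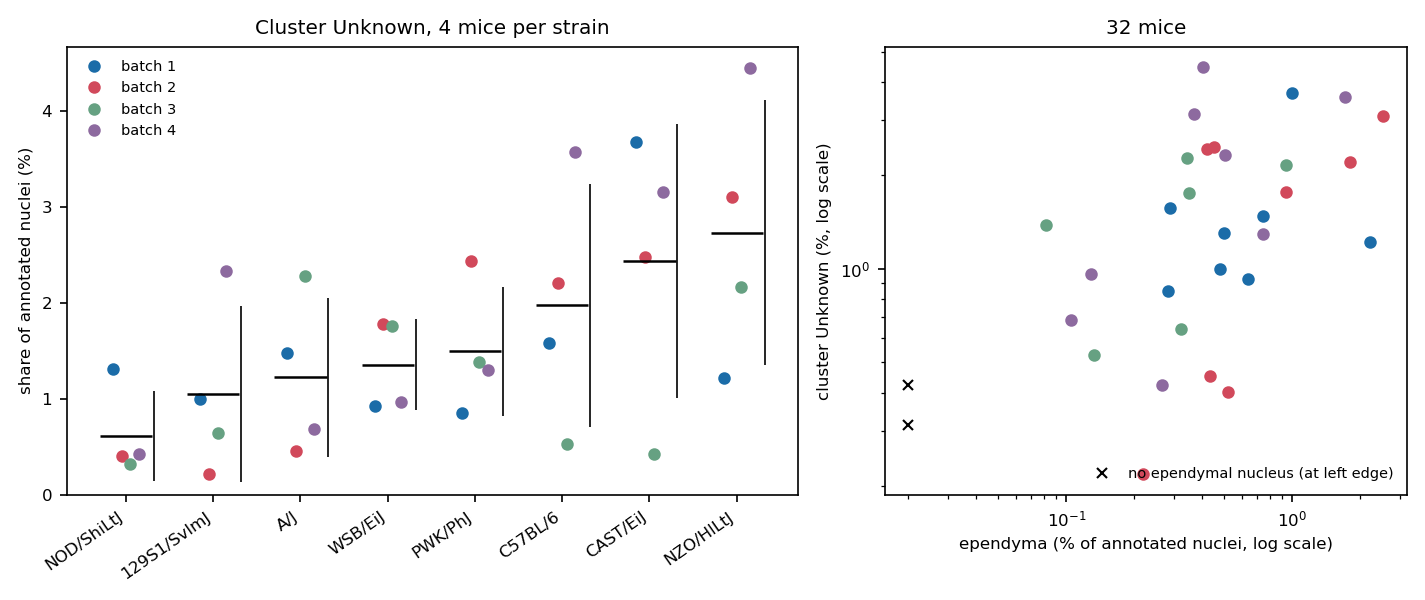
Left, share of the cluster among the annotated nuclei of each mouse (%) by strain, with the mean as a horizontal and the SD as a vertical line; right, the share of ependyma against that of the cluster on log axes (%), 1 point per mouse, with the 2 mice without an ependymal nucleus as crosses at the left edge. Strains overlap on the left, and on the right the points tend to rise together (r = 0.60).

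The share of cycling nuclei in the cluster could be compared between 7 strains and 24 mice with at least 10 thinned nuclei. It ran from 25.0% to 61.5% per mouse, and strain means were 51.5% in A/J, 44.9% in PWK/PhJ, 44.3% in WSB/EiJ, 44.1% in 129S1/SvImJ, 36.3% in C57BL/6 and 36.2% in both NZO/HlLtJ and CAST/EiJ. The strain difference did not pass the permutation test within batches (F = 1.37, p = 0.288).

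The deposited index of open chromatin barcodes lists some of the annotated nuclei, and their share differed widely between clusters. It was 80.7% in the cluster Unknown, 95.5% and 96.3% in the Drd1+ and Drd2+ neurons, 84.6% in astrocytes, 77.4% in oligodendrocytes, 70.8% in ependyma, 66.6% in the Polydendrocyte/Oligodendrocyte cluster and 51.0% in mural cells, the lowest. A share below that of the pooled other nuclei was thus not particular to the cluster. Over 26 mice with at least 10 nuclei the share was 80.5 ± 12.4% (SD) in the cluster and 88.1 ± 5.48% in all other annotated nuclei, a difference of -7.63 percentage points that was negative in 21 of 26 mice (sign-flip permutation test, p = 4e-05). The mean difference was -6.39, -12.4, -15.6 and +0.72 points in the 4 batches, so batch 4 did not share it. Against other nuclei of like depth, between 1208 and 3573 UMIs, the difference was -2.84 points, negative in 13 of 26 mice, and did not pass (permutation p = 0.15).

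Genes that differed between strains inside the cluster were tested on counts summed per mouse, over 25 mice of 7 strains. NOD/ShiLtJ was left out because too few of its mice had 10 nuclei. Of 2664 genes 67 (2.52%) passed edgeR's quasi-likelihood test of the strain term with Benjamini-Hochberg adjustment, and 299 had an unadjusted p under 0.05. Without batch 1, 2 or 4 the count was 42, 34 or 38. Among the lists 0 of 14 tested neuroblast genes passed, 1 of 4 replication, 1 of 11 mitosis, 0 of 4 progenitor, 1 of 17 migration and 2 of 7 olfactory bulb genes. Dcx (adjusted p = 0.913), Sox11 (0.913), Dlx1 (0.897), Mki67 (0.363) and Egfr (0.683) did not pass in edgeR's test. Over mice with at least 20 nuclei Mki67 did (adjusted p = 0.0134 in edgeR's test).

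Top2a was the mitosis gene that passed (edgeR's quasi-likelihood test, adjusted p = 0.00714). Its level was 604, 398, 485 and 484 CPM in the 4 A/J mice and 351, 576, 416 and 546 CPM in the WSB/EiJ mice. It was 254, 86.6 and 161 CPM in the 3 CAST/EiJ mice, 242, 128 and 298 CPM in C57BL/6 and 118, 258, 285 and 219 CPM in NZO/HlLtJ. All mice of A/J and WSB/EiJ thus lay above all mice of the latter 3 strains. PWK/PhJ, at 234, 276, 500 and 438 CPM, and 129S1/SvImJ, at 410, 431 and 294 CPM, spanned the range between. The call was lost without batch 2 (adjusted p = 0.177) and without batch 4 (0.0629) in edgeR's test. Of the strains high in Top2a, A/J had the highest mean share of cycling nuclei (51.5%). WSB/EiJ, at 44.3%, was near PWK/PhJ (44.9%) and 129S1/SvImJ (44.1%). The part of the share of cycling nuclei in the result was not tested.

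Erbb4 was the migration gene that passed (edgeR's quasi-likelihood test, adjusted p = 0.00132). It was at 5521, 7139 and 6711 CPM in C57BL/6 and 5342, 6570 and 7125 CPM in CAST/EiJ. In 129S1/SvImJ it was 624, 1723 and 1950 CPM, in WSB/EiJ 1944, 1315, 2949 and 2787 CPM, in A/J 2190, 2901, 2752 and 2840 CPM and in NZO/HlLtJ 3106, 3478, 2468 and 3237 CPM. C57BL/6 and CAST/EiJ lay above all mice of these 4 strains, and PWK/PhJ spread from 2168 to 7770 CPM across both. Without batch 4 the call was lost (adjusted p = 0.307 in edgeR's test). Within the cluster, mean Erbb4 was 6366 CPM in nuclei without cycling genes and 1701 CPM in cycling nuclei. The part of the share of cycling nuclei in the Erbb4 result was not tested. Among Drd1+ neurons, 129S1/SvImJ had the highest Erbb4 strain mean (441 CPM) and CAST/EiJ the lowest (237 CPM).

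Synpr, the synaptic vesicle gene of the olfactory bulb list, passed under every alternative tried (edgeR's quasi-likelihood test, adjusted p = 6.67e-05). Its strain means were 766 CPM in 129S1/SvImJ and 700 CPM in NZO/HlLtJ, down to 191 CPM in WSB/EiJ, whose mice had 164, 301, 99.0 and 201 CPM. The lowest NZO/HlLtJ mouse, at 531 CPM, was above all WSB/EiJ mice. Tshz1, a zinc finger gene of the same list (adjusted p = 0.0397), and Pola1, a DNA polymerase subunit of the replication list (adjusted p = 0.0174), also passed edgeR's test. Both were lost in the same test without batch 1 (adjusted p = 0.224 and 0.271) and without batch 2 (0.377 and 0.275), and Pola1 also without batch 4 (0.0793). With mice of at least 20 nuclei the adjusted p in edgeR's test was 0.0580 for Tshz1 and 0.0654 for Pola1, Pola1 was at 0.155 with mice of at least 5 nuclei, and Tshz1 at 0.110 in DESeq2. Vcan, a matrix proteoglycan, was the 1 gene of 2 tested on the oligodendrocyte precursor list to pass edgeR's test (adjusted p = 0.0162). Vcan was lowest in WSB/EiJ at 87.1 CPM and highest in C57BL/6 at 385 CPM. Its call in edgeR's test was lost without batch 1 (adjusted p = 0.0873), without batch 4 (0.287) and with mice of at least 20 nuclei (0.284). Cycling nuclei had lower means than nuclei without cycling genes for Synpr (270.5 against 633.5 CPM), Tshz1 (148 against 271 CPM) and Vcan (159 against 382 CPM). Pola1 is itself a gene of the cycling lists. The part of the share of cycling nuclei in the results for Synpr, Tshz1, Pola1 and Vcan was not tested.

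By rule, the 10 genes with the largest F statistic were Cwc22, B530045E10Rik, AC149090.1, Adamtsl1, Gm47283, Catspere2, Fhit, Gm5087, Eml6 and Asic2. Cwc22, a splicing factor gene, was at 1570, 1653, 1959 and 1753 CPM in WSB/EiJ, and the other strain means were 24.3 to 71.8 CPM. The same gene was at 1590 CPM in WSB/EiJ in the Drd1+ projection neurons, so its pattern was not particular to the cluster. B530045E10Rik was at 604 ± 387 CPM (SD, n = 3) in CAST/EiJ and had 1 UMI in all other mice of the fit, and its call was not made by DESeq2 (adjusted p of 1).

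Strain means in the Drd1+ neurons are set beside those in the cluster for the other genes of the 10, with no test of the difference. The highest strain was the same in both for AC149090.1 (CAST/EiJ, 1229 CPM in the cluster and 2102 in Drd1+ neurons), Catspere2 (PWK/PhJ, 362 and 548 CPM) and B530045E10Rik (CAST/EiJ, 604 and 165 CPM). Gm47283 was highest in PWK/PhJ in the cluster (533 CPM) and in WSB/EiJ in Drd1+ neurons (175 CPM). It was lowest in NZO/HlLtJ in both (82.9 and 39.7 CPM). Fhit, a nucleotide hydrolase gene, was highest in WSB/EiJ in the cluster, at 329 CPM, and in 129S1/SvImJ in Drd1+ neurons, at 434 CPM. Adamtsl1, an extracellular matrix protein gene, was at 420, 455 and 579 CPM in the CAST/EiJ mice and at 0 to 128 CPM in every other mouse, while its Drd1+ strain means did not exceed 5.26 CPM. Gm5087, a noncoding RNA gene, was at 197, 283, 332 and 245 CPM in NZO/HlLtJ and 170, 158, 133 and 139 CPM in PWK/PhJ, and under 1 CPM in the Drd1+ neurons of every strain. Eml6, a microtubule-associated protein gene, was at 461, 455 and 429 CPM in CAST/EiJ with other strain means from 89.4 to 168 CPM, while in Drd1+ neurons CAST/EiJ was the lowest strain at 139 CPM. Asic2, an acid-sensing ion channel gene, had its highest strain mean in PWK/PhJ in the cluster, at 702 CPM, and its lowest there in Drd1+ neurons, at 327 CPM.

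**Figure D5:**
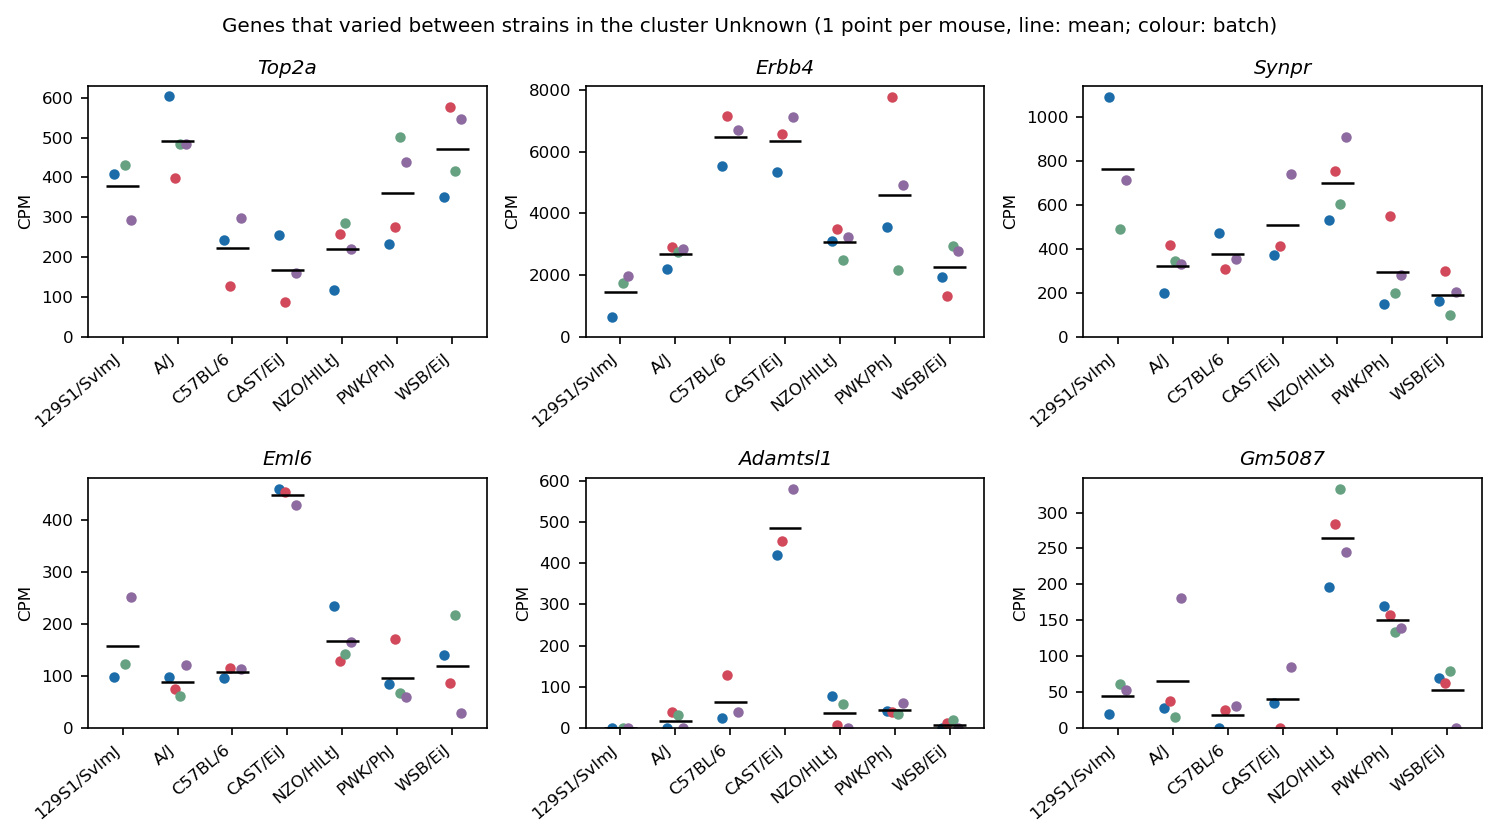
Levels (CPM, linear axes from 0) of Top2a, Erbb4, Synpr, Eml6, Adamtsl1 and Gm5087 in the cluster, 1 point per mouse by strain, coloured by batch, with the strain mean as a line. A/J and WSB/EiJ are high in Top2a, C57BL/6 and CAST/EiJ in Erbb4, CAST/EiJ in Eml6 and Adamtsl1, and NZO/HlLtJ and PWK/PhJ in Gm5087.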

How the data were processed

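Raw UMI counts per gene and nucleus were deposited by the authors for each batch, together with a table of categories per barcode (strain call, filters, cluster). Per the submitters' processing notes, bcl2fastq 2.20.0.422 and Cell Ranger ARC 2.0.0 were used, with the builds mm10 and GRCm38. Per the deposited description, the authors assigned strains with Demuxlet, filtered on detected genes and mitochondrial share, ran DoubletFinder, and removed nuclei on biological relevance. No further doublet caller was applied. Of 89339 barcodes, 65804 were singlets of 1 strain in both readouts, 65394 passed quality filters, 6719 were called doublets and 3003 were removed, leaving 55672. The deposited table writes C57BL/6NJ and the design text C57BL/6J, so the strain is called C57BL/6. The open chromatin matrix was not analysed here, and some genes are not reported here.

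Counts were summed per batch and cluster, or per mouse, and scaled to CPM. Ratios had 1 CPM added. The strain term was fitted with edgeR 4.0.16 (R 4.3.3; TMM, robust quasi-likelihood F test, batch as a block, mice with at least 10 nuclei, strains with at least 2 such mice, filterByExpr), with DESeq2 1.42.0 as an alternative. Permutation tests used 100000 resamples (Python 3.11.15, numpy 2.4.6, scipy 1.17.1), two-sided and, apart from the sign-flip test, within batch. The sign-flip test paired nuclei within each mouse and had no batch term. Replicate numbers are the batches of the series design, and deviations from strain means correlated at a mean of 0.03 between mice of 1 batch and -0.01 between batches. Genes were named by 1 rule each: list members, the 20 leading genes, the 10 lowest against neurons, the 10 most like Dcx and the 10 with the largest strain F. The cluster and the lists were chosen with earlier results of these data known. Intervals are exact and cover counting error only.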

Additional observations from a re-analysis of the deposited data

Results flagged for a closer look

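In groups of 4 mice or batches, a value was singled out when its gap to the nearest other exceeded Dixon's 95% critical value. This held in 6 of 110 groups, and chance gives about 1 in 20. The NOD/ShiLtJ mouse of batch 1 had 1.31% of its nuclei in the cluster, against 0.314 to 0.424% in the other 3. Gm5087, the noncoding RNA gene high in NZO/HlLtJ and PWK/PhJ, was at 181 CPM in the A/J mouse of batch 4 and at 15.6 to 37.9 CPM in the other A/J mice. Pola1, the DNA polymerase subunit, was at 814 CPM in the PWK/PhJ mouse of batch 2 and at 518 to 567 CPM in the other 3. Tshz1 was at 87.7 CPM in the WSB/EiJ mouse of batch 2, against 187 to 201 CPM. The single UMI of B530045E10Rik outside CAST/EiJ gave 13.1 CPM in the PWK/PhJ mouse of batch 2, where the others were at 0. The spindle factor Tpx2 was at 72.3 CPM in batch 1 of the cluster and at 95.8 to 97.5 CPM in the other 3 batches.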

How the results depend on the processing

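Of 287 alternative values 254 kept their direction and their side of the threshold, or stayed near the reported value, and none reversed. Of the rest, 21 no longer passed and 12 moved. Some of the 254 could not change, because adding 0.1 or 5 CPM to every cluster cannot alter which cluster is highest for a gene. The deficit in the open chromatin index was -2.84 points against nuclei of like depth (permutation p = 0.15) and -10.7 to -5.74 points with 1 batch left out. The strain term called 162 genes without a filter on low counts and 34 to 87 with 1 batch left out. The cause was not tested. In the reported test 2 clusters went with the share of the cluster, and 1 with shares of all annotated nuclei (ependyma) or with any 1 batch left out, which was astrocytes without batch 3 and ependyma otherwise.

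Without the replicate block the strain term called 45 genes, the ependymal correlation had an adjusted permutation p of 0.00714, the strain test of the share gave a permutation p of 0.105 (adjusted 0.299), and that of cycling nuclei a permutation p of 0.285. Leaving out nuclei with UMIs of another mature type kept 83 of 861 nuclei. The log2 ratio of Top2a to the highest other cluster was 5.19, and over the alternatives it ran from 3.99 (nuclei thinned to 1000 UMIs) to 6.56 (without batch 3). Pola1, Tshz1 and Vcan lost their call without the block (edgeR's adjusted p = 0.0502, 0.0672 and 0.113). The filter on low counts kept 2664 of 18964 genes for the strain test, so genes of few UMIs were not tested.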

Other observations

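Outside the cycling lists, the genes furthest apart between cycling nuclei and nuclei with no cycling gene were looked up after their values were seen. Dtl, which limits replication licensing, was at 2.30 CPM without cycling genes and at 223 CPM with them. Esco2, Stil, Cep55, Spag5 and Cdca8 were at 0 in all 4 batches without cycling genes and at 121, 107, 99.3, 96.5 and 82.4 CPM with them. Parpbp, E2f2, Rad51ap1, Fanci and Sgo1 were likewise at 0 without cycling genes, and at 86.9, 77.0, 75.3, 74.5 and 70.7 CPM with them. Dtl and all of these reached 20 CPM only in the cycling nuclei. Among the 12 furthest in the other direction, the sodium-activated potassium channel gene Kcnt1 was at 34.5 CPM without cycling genes and at 1.72 CPM with them, the semaphorin receptor Nrp2 at 22.9 and 1.80 CPM and the secreted synaptic protein gene Olfm3 at 81.1 and 10.3 CPM. Kcnt1, Nrp2 and Olfm3 reached 20 CPM only without cycling genes.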
